A study of Rattus norvegicus with 29 samples.

Results

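The transcripts described here are the non-coding RNA records counted in rat dorsal root ganglia, the clusters of sensory neuron cell bodies beside the spinal cord. A row was taken when its RefSeq identifier began with NR, the prefix of non-coding transcripts, and when its reads summed over all 29 libraries came to 290 or more. This gave 69 of the 591 NR rows, among 18092 transcripts in all. The other NR rows were at 0 in every library in 238 cases and fell short of the limit in 284. The members were thus chosen by their sum of reads, and their amounts are a description. The last rows left out were NR_045202 with 278 reads, Pincl with 283 and Mir34a, 1 read short of the limit, and the first taken were Mir6333 with 311, Mir7-1 with 316 and Igh-6l1 with 316.

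Whole ganglia of segments C6 to C8 were taken from elderly Lister Hooded rats, on the affected side, and each library came from 1 rat. Sham rats without a stroke numbered 4 at week 5 and 5 at week 11. Rats with a stroke of the cortex on one side and an infusion of vehicle numbered 5 at each week, and rats with the same stroke and an infusion of neurotrophin-3 (NT3), a growth factor for sensory neurons, numbered 5 at each week. The sample labels call the stroke-free arm sham, whereas the series text calls it naïve, and an infusion is described for stroke rats only. RNA was selected for poly(A) tails before stranded libraries were made, so RNAs without a tail enter only in part. In whole tissue, fewer cells of a type and less RNA per cell cannot be told apart.

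Non-coding RNAs have several ways of working. Long non-coding RNAs are spliced like messenger RNAs and act as RNA, many of them in the nucleus. MicroRNAs are cut by Drosha and Dicer from a hairpin within a longer primary transcript and pair with messenger RNAs through their seed, so reads placed on a microRNA row of a poly(A) library come from RNA that covers the hairpin and do not measure the mature microRNA. Bc1 is a short rodent RNA made by RNA polymerase III, found in neurons and their dendrites, where it represses translation.

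Libraries held 16703574 to 22773108 reads assigned to a transcript in 28 rats and 9555685 in rat 27, a vehicle rat of week 11. The share of reads lying outside annotated features ran from 21.0% to 28.6%, and rats 8 and 11, both sham at week 11, were lowest at 21.0% and 21.7%. The share of reads not aligned to a single place ran from 16.3% to 19.3% in the others and was 37.2% in rat 27. Sensory neuron markers summed to between 8574 and 13718 CPM, the reads of a transcript scaled to library size with the trimmed mean of M values, with rat 8 highest. Of that list, Pou4f1 and Prrxl1 matched no row. Avil, Prph, Tubb3 and Scn10a were highest in rat 8, Nefh was at 4709 CPM there against a highest of 4721, and Isl1 was lowest, at 42.4 CPM. Rat 27 also stood apart in markers of central nervous tissue, with Mobp at 89.4 CPM against a median of 0.999, Nrgn at 64.9 against 0.90 and Opalin at 28.5 against 0.0940. The 8 markers of that list summed to 786 CPM in rat 27 and to 335 to 550 elsewhere, and most of the sum outside rat 27 was Slc17a7, at 266 CPM or more in every library. The 4 macrophage markers summed to 187 CPM in rat 27 and to 29.4 to 106 elsewhere. Several results that rest on rats 8, 11 or 27 are also given without some of these rats. No fit of differences or slopes left out both rats 8 and 11.

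The members are long RNAs, microRNA hairpins, pseudogenes and non-coding records of coding genes. Symbols matched for 67 of 69 members, and the current RefSeq table for the GRCr8 assembly lists 31 as long non-coding, 23 as microRNA, 7 as transcribed pseudogene, 5 as protein-coding genes and 1 as an RNase MRP RNA. Of the 448 NR rows for microRNAs, 192 were at 0 in every library and 23 are members. Small nucleolar RNAs had 5 NR rows, none of which reached the limit. Meg3, Malat1, Neat1 and Xist were not analysed here.

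For 20 of the 23 microRNA members RefSeq holds mature sequences, 31 in all. The ones printed are those the results turn on, with the seed, bases 2 to 8, in capitals.
rno-miR-186-5p: cAAAGAAUucuccuuuugggcu
rno-miR-568: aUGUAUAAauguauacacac
rno-miR-3064-3p: uUUGCCACacugcaacaccuuaca
rno-miR-770-5p: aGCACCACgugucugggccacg
rno-miR-22-3p: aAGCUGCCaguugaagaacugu
rno-miR-7a-5p: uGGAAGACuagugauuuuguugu
rno-miR-138-5p: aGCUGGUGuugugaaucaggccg
The last is shared: Mir138-1 and Mir138-2 give the identical miR-138-5p, and no other seed occurs on more than 1 member. 

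Bc1 is the member with a known promoter inside its own transcript, so its start is shown. The 300 bases run from 250 before to 50 after the start, chr1:209502647-209502946 on the plus strand of GRCr8, from RefSeq. The files were made on the earlier build rn6.
Bc1: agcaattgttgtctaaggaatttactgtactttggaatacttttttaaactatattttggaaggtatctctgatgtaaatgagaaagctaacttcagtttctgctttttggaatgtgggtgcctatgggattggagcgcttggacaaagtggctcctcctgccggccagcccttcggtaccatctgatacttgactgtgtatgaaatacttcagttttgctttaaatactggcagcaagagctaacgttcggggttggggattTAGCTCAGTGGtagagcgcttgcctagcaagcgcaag
The capitals mark the A box pattern of RNA polymerase III genes, searched on both strands with any base allowed at a pair of its middle positions. They start at base 14 of the transcript, and 299 of 33469 windows of the same length, 0.893%, hold the pattern. The letters TATAAA are not in the window and are in 14.2% of windows. A run of 25 bases from the first 50 of the transcript recurs in 196 of 33468 other windows, so reads from copies of Bc1 elsewhere in the genome may be placed on it or set aside as not unique, and its counts are uncertain to that degree.

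Reads were concentrated on a few members. Together the 69 held 1103898 reads, which is 99.1% of the reads on NR rows and 0.204% of all assigned reads. Miat, a nuclear long RNA abundant in nervous tissue, held 594295 of them, 53.8%, and Prrc2c (NR_111961), a non-coding record that the current table calls a transcribed pseudogene, held 179733, 16.3%. MicroRNA rows held 36606 reads, 3.32%. The share of assigned reads on members was 0.213% ± 0.021 (SD, n = 10) in NT3 rats, 0.211% ± 0.022 (n = 10) in vehicle rats and 0.187% ± 0.035 (n = 9) in sham rats. Rats 8 and 11 were lowest of all 29, at 0.129% and 0.132%, and the ranges of the arms overlapped.

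Every member had reads in every library and all 69 passed the filter on low counts, with 12556 transcripts tested. Members varied more between libraries than the rest, with a median coefficient of variation of 25.0% against 15.1% over all tested transcripts. They were also sampled more thinly, with a median of 4.01 CPM against 30.0. Their spread ran from 8.66% to 395%, and the last is Rpph1.

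Among the long RNAs, Miat was at 1055 ± 37.8 CPM in sham rats at week 5 (SD, n = 4), 1165 ± 135 in vehicle rats and 1198 ± 128 in NT3 rats at that week (n = 5 each). At week 11 it was at 944 ± 335, 1068 ± 135 and 1131 ± 114 (n = 5 each). The sham group of week 11 was wide, with 686 CPM in rat 8, 484 in rat 11 and 1162 to 1202 in its other 3 rats. Tug1, a long RNA first described in the retina, had 11.7, 21.3, 17.3 and 10.2 CPM in sham rats at week 5, and 16.7, 21.8, 27.2, 29.5 and 25.4 in vehicle rats of that week. The highest sham value lay above the lowest vehicle value, so the groups overlapped. Gas5, host of box C/D small nucleolar RNAs, was at 48.3 ± 4.52 CPM in sham, 48.7 ± 4.57 in vehicle and 51.6 ± 7.89 in NT3 rats at week 5, and H19, a long RNA made from the maternal allele, at 7.78 ± 3.52, 6.46 ± 2.19 and 6.79 ± 2.47. Neither differed between arms by more than the spread between rats.

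Several pseudogene rows and uncharacterized loci were close in the 3 arms. Ybx1-ps20 was at 19.5 ± 2.22 CPM in sham rats (n = 9), 20.3 ± 2.12 in vehicle rats and 20.1 in NT3 rats, where it ran from 16.5 to 23.3 (n = 10 each), and Tnxa-ps1 at 13.8 ± 2.57, 13.3 ± 4.43 and 14.7 ± 1.53. LOC100911177 was at 35.8 ± 5.50, 32.2 ± 2.78 and 33.4 ± 2.39 CPM, and Smim30l1, listed as a long non-coding RNA, at 46.5 ± 5.95, 44.9 ± 2.82 and 44.5 ± 3.59. LOC100911177 was highest in rat 11, at 49.0 CPM. In each of these the arms lay within the spread between rats. Of the hosts of small nucleolar RNAs, Snhg4 was at 5.36 ± 1.58, 5.58 ± 0.667 and 5.20 ± 1.09 CPM and Dancr at 2.03 ± 0.635 in sham and 1.88 ± 0.474 in NT3 rats. The median coefficient of variation was 29.8% for microRNA rows, 25.7% for other named genes and 23.1% for pseudogenes.

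Among the microRNA rows, Mir770 was at 6.52 ± 3.63 CPM in sham, 7.64 ± 1.93 in vehicle and 8.66 ± 2.51 in NT3 rats, and ran from 1.67 in rat 11 to 13.2 in rat 63, both sham at week 11. Mir21, whose mature form is known to rise in rat ganglia after nerve injury, was at 0.805 ± 0.186, 0.906 ± 0.219 and 0.892 ± 0.134 CPM, with 471 reads in all. Mir138-2 was at 2.55 ± 0.655, 3.02 ± 0.942 and 2.97 ± 0.590 CPM, and Mir138-1 at 1.44 ± 0.599, 1.27 ± 0.472 and 1.40 ± 0.272. The arms overlapped in all 4.

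No member differed between the arms under edgeR's quasi-likelihood test with Benjamini-Hochberg adjustment over all tested transcripts. The share called among all transcripts was 0% for vehicle against sham, NT3 against vehicle and NT3 against sham, with weeks averaged, and the members' count was 0 of 69 in each. At an unadjusted p under 0.05, vehicle against sham had 10 of 69 members (14.5%) against 16.9% of all transcripts, NT3 against vehicle had 3 (4.35%) against 3.32%, and NT3 against sham had 4 against 10.6%. DESeq2 and limma's voom fit also called 0 members in these comparisons. Among all transcripts voom called 0.287% for vehicle against sham, and 0% for NT3 against vehicle and NT3 against sham. The share called by DESeq2 is not given here. The p-values measure the spread between rats.

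The members with the smallest p for vehicle against sham were Ngrn, Lnc001 and Rpph1. Ngrn (NR_028055) is a non-coding record of the gene for neugrin, which is needed to build the mitochondrial ribosome. It held 12432 reads and the coding record of the gene held 7. Whether the reads on the Ngrn row come from non-coding RNA was not tested. The row ran from 22.8 to 28.8 CPM in sham rats, with a mean of 26.0 ± 2.17 (n = 9). It averaged 21.7 ± 2.41 in vehicle rats and 21.3 ± 3.41 in NT3 rats (n = 10 each). Its log2 difference was -0.26 (SE 0.08) for vehicle and -0.29 (SE 0.08) for NT3 against sham, with edgeR adjusted p of 0.269 and 0.461. Both differences use the same sham rats. Lnc001 was at 4.53 ± 0.714 CPM in sham rats and 5.71 ± 0.943 in vehicle rats, a log2 difference of 0.32 (SE 0.10) at an edgeR adjusted p of 0.269. Rpph1 differed by 2.46 on the log2 scale (SE 0.86, same adjusted p), and by 0.19 without rat 27. For NT3 against sham the third smallest p was that of Mir7-1, at 0.440 ± 0.120 CPM in sham and 0.671 ± 0.218 in NT3 rats, with a log2 difference of 0.57 (SE 0.23) and an edgeR adjusted p of 0.461.

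Most members had a fitted difference above 0 in stroke rats, and none passed the test. The median log2 difference over the 69 was 0.13 for vehicle against sham, with 50 above 0, and 0.10 for NT3 against sham, with 48 above 0. Over all 12556 transcripts the medians were -0.01 and 0.01, with 48.8% and 51.4% above 0. Sham rats also had the lower mean share of reads outside annotated features, at 25.2% ± 2.34 (n = 9). It was 26.7% ± 1.56 in vehicle and 26.8% ± 1.25 in NT3 rats (n = 10 each). The sham mean includes rats 8 and 11, at 21.0% and 21.7%. The medians were 26.0% in sham and 27.3% in both vehicle and NT3 rats, and the ranges overlapped. The fit with that share was not repeated without rats 8 and 11. With that share in the fit, the members' medians were 0.03 for both, with 37 and 42 of 69 above 0. Both use the same sham rats. Without rat 8 the medians were 0.11 and 0.08, with 48 and 46 above 0, and without rat 11 they were 0.11 and 0.09, with 50 above 0 in each. NT3 against vehicle had a median of 0.00, with 30 of 69 above 0.

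**Figure D1:**
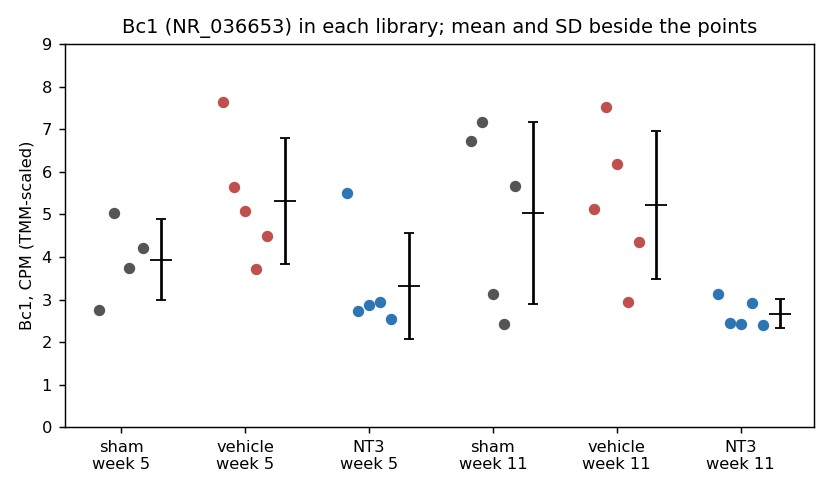
Bc1 in CPM on a linear axis from 0 (y) for each rat in the 6 groups (x); points are rats, and the cross bar and whiskers beside them are the mean and SD. In NT3 rats 9 of 10 points lie at or under 3.14 CPM and rat 25 lies at 5.51, whereas sham and vehicle rats spread from 2.43 to 7.63.

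Bc1 (NR_036653) held 2239 reads, 42 to 141 per library. At week 5 it was at 2.75, 5.03, 3.74 and 4.21 CPM in sham rats, at 7.63, 5.65, 5.08, 3.72 and 4.50 in vehicle rats, and at 5.51, 2.72, 2.87, 2.94 and 2.54 in NT3 rats. At week 11 it was at 6.73, 7.17, 3.13, 2.43 and 5.68 in sham rats, at 5.13, 7.52, 6.18, 2.95 and 4.35 in vehicle rats, and at 3.14, 2.44, 2.44, 2.91 and 2.40 in NT3 rats. NT3 rats were low in both weeks, apart from rat 25, and overlapped the vehicle group at each week through rat 25 or rat 50. Bc1 also went with rat number. Rats 1 to 33 had 5.08 CPM or more in every arm, and rat 25 is the only NT3 rat among them. Rats 36 and up had 5.03 CPM or less, apart from rat 81 at 5.68. Among rats 36 and up, vehicle rats had 3.72, 4.50, 2.95 and 4.35 CPM, against 2.40 to 3.14 in NT3 and 2.43 to 5.68 in sham rats. The part of rat number in the arm difference was not tested. Counting error is wide at these depths. The 42 reads of rat 89 give an exact 95% binomial interval of 1.71 to 3.21 on the scale of unscaled CPM. The 141 of rat 1 give 6.32 to 8.85.

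Over both weeks Bc1 averaged 2.99 ± 0.921 CPM in NT3 rats (SD, n = 10), 5.27 ± 1.52 in vehicle rats (n = 10) and 4.54 ± 1.72 in sham rats (n = 9). The fitted log2 difference of NT3 from vehicle was -0.82 (SE 0.20), with -0.68 (SE 0.28) at week 5 and -0.95 (SE 0.29) at week 11. Bc1 had been singled out for this contrast in earlier work on these libraries, so these values are a description and carry no p-value. Leaving out each rat in turn moved the difference between -0.95 and -0.73. With the share of reads outside features in the fit it was -0.80. Rat number was in none of these fits.

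The transcripts whose log2 CPM over the 29 libraries followed Bc1 most closely by Pearson's r were Snrpf, a core protein of spliceosomal particles, at 0.727, Sephs2, an enzyme of selenium metabolism, at 0.662, Tm2d3 at 0.640, Rpl3, a ribosomal protein, at 0.620, and Ppia, a prolyl isomerase, at 0.611. These are the highest of 12556 and are a description, since the libraries share depth and composition. Among members Snhg4, a host of a small nucleolar RNA, came first at 0.546 and rank 51. The gene Lto1, which holds Bc1 on the same strand in the GRCr8 table, did not follow it (r = -0.19, rho = -0.18, permutation p 0.312 and 0.359, adjusted 0.370 and 0.379, 29 libraries).

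Within single weeks 0 of 69 members were called in vehicle against sham, NT3 against vehicle, or week 11 against week 5 in sham and NT3 rats by edgeR, and the share called among all transcripts was 0% in each. At an unadjusted p under 0.05 there were 1 of 69 members (1.45%) for vehicle against sham at week 5 and 10 (14.5%) at week 11, against 8.38% and 9.78% of all transcripts. For NT3 against vehicle there were 3 (4.35%) and 4 of 69 at those weeks, against 4.99% and 1.52%. Between weeks there were 3 (4.35%) in sham and 1 (1.45%) in NT3 rats, against 3.73% and 1.58%. DESeq2 called 0 members in each, and its share among all transcripts is not given here. Voom with quality weights called 5 of 69 members (7.25%) for vehicle against sham at week 5, all higher, against 8.59% of all transcripts. It called 14 (20.3%) for week 11 against week 5 in sham rats, 10 higher and 4 lower, against 17.6%. Both shares of members are near the share of all transcripts. Between weeks in vehicle rats edgeR called 106 transcripts, 0.844% (0.828% higher and 0.0159% lower at week 11), and 0 members. Groups did not overlap for 0 members in vehicle against sham at week 11 (0.255% of all transcripts), in NT3 against vehicle at weeks 5 and 11 (1.94% and 0.287%), and between weeks in sham and vehicle rats (0.494% and 2.64%). Neither test of whether an arm difference changed with week called a member.

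At week 5 the smallest p for vehicle against sham belonged to Prrc2c, Vof16 and Tug1. Prrc2c was at 261 ± 63.6 CPM in sham and 385 ± 88.8 in vehicle rats, a log2 difference of 0.56 (SE 0.26), and Tug1 differed by 0.67 (SE 0.34), both at an edgeR adjusted p of 0.539. All 3 were among the 5 called by voom, with differences of 0.65, 0.81 for Vof16 and 0.86 for Tug1 and voom adjusted p of 0.0413, 0.0456 and 0.0415. Mir410 and Mir568 were the others. Mir186 was the only member whose groups did not overlap at week 5, at 0.508 to 1.10 CPM in sham and 1.14 to 2.60 in vehicle rats, where 3.87% of all transcripts had groups apart. It did not pass the test. At week 11 the smallest p were those of Rpph1 at 3.82 (SE 1.11), which was -0.72 without rat 27, Lnc001 at 0.44 (SE 0.14), and Mir22 at -0.30 (SE 0.11), each at an edgeR adjusted p of 0.507.

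Mir22, the microRNA row with the most reads, was at 11.8 ± 1.50 CPM in sham and 9.58 ± 1.44 in vehicle rats at week 11, and at 10.1 ± 0.774 and 11.1 ± 1.35 at week 5. The difference between weeks was -0.43 (SE 0.16) on the log2 scale, with an edgeR adjusted p of 0.987. For NT3 against vehicle, Abhd11-as1, transcribed opposite Abhd11, differed by -0.39 (SE 0.18) at week 5, and Lnc134 by -0.47 (SE 0.23), at edgeR adjusted p of 0.973 and 0.983. At week 11 Rpph1 differed by -4.82 (SE 1.22), and by -0.28 without rat 27. Lnc001 differed by -0.32 (SE 0.14), and neither passed (edgeR adjusted p of 1).

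Between weeks, Lnc012 was lower at week 11 in NT3 rats without overlap, at 11.7 to 14.2 CPM against 14.7 to 16.3, where 0.972% of all transcripts had groups apart. Its log2 difference was -0.26 (SE 0.12) at an edgeR adjusted p of 1.00. Lnc012 overlaps Cplx2 on the opposite strand in the GRCr8 table, and whether reads were counted by strand is not given in the sources used here. In sham rats the smallest p were those of NR_027235 at -0.21 (SE 0.08), LOC100911827 at -0.55 (SE 0.24) and Atp2a2 at -0.24 (SE 0.11), the last a non-coding record of the calcium pump of the endoplasmic reticulum, each at an edgeR adjusted p of 0.988. They were among the 4 members that voom called lower, at voom adjusted p of 0.0221, 0.0178 and 0.0475. The Atp2a2 row held 21152 reads and the 2 coding records of its gene held 0. Whether the reads on that row come from non-coding RNA was not tested. In vehicle rats Igh-6l1 differed by -0.72 (SE 0.32) and Abhd11-as1 by -0.48 (SE 0.18), at edgeR adjusted p of 0.466 and 0.306.

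More members were called with the make-up of the library than between arms. With group means in the fit, the slope of log2 CPM on the share of reads outside annotated features passed edgeR's quasi-likelihood test, Benjamini-Hochberg adjusted, for 30 of 69 members (43.5%), with 23 rising and 7 falling as the share rose. Among all 12556 transcripts 58.9% were called, 30.2% rising and 28.7% falling. Members were thus called in a smaller share than transcripts at large, and 23 of their 30 calls were rising. They were also sampled more thinly, at a median of 4.01 CPM against 30.0, and the part of depth in the lower count was not tested. The share outside features is a property of the same libraries, and the rule for these transcripts names it. The counts are thus a description of how they go together.

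**Figure D2:**
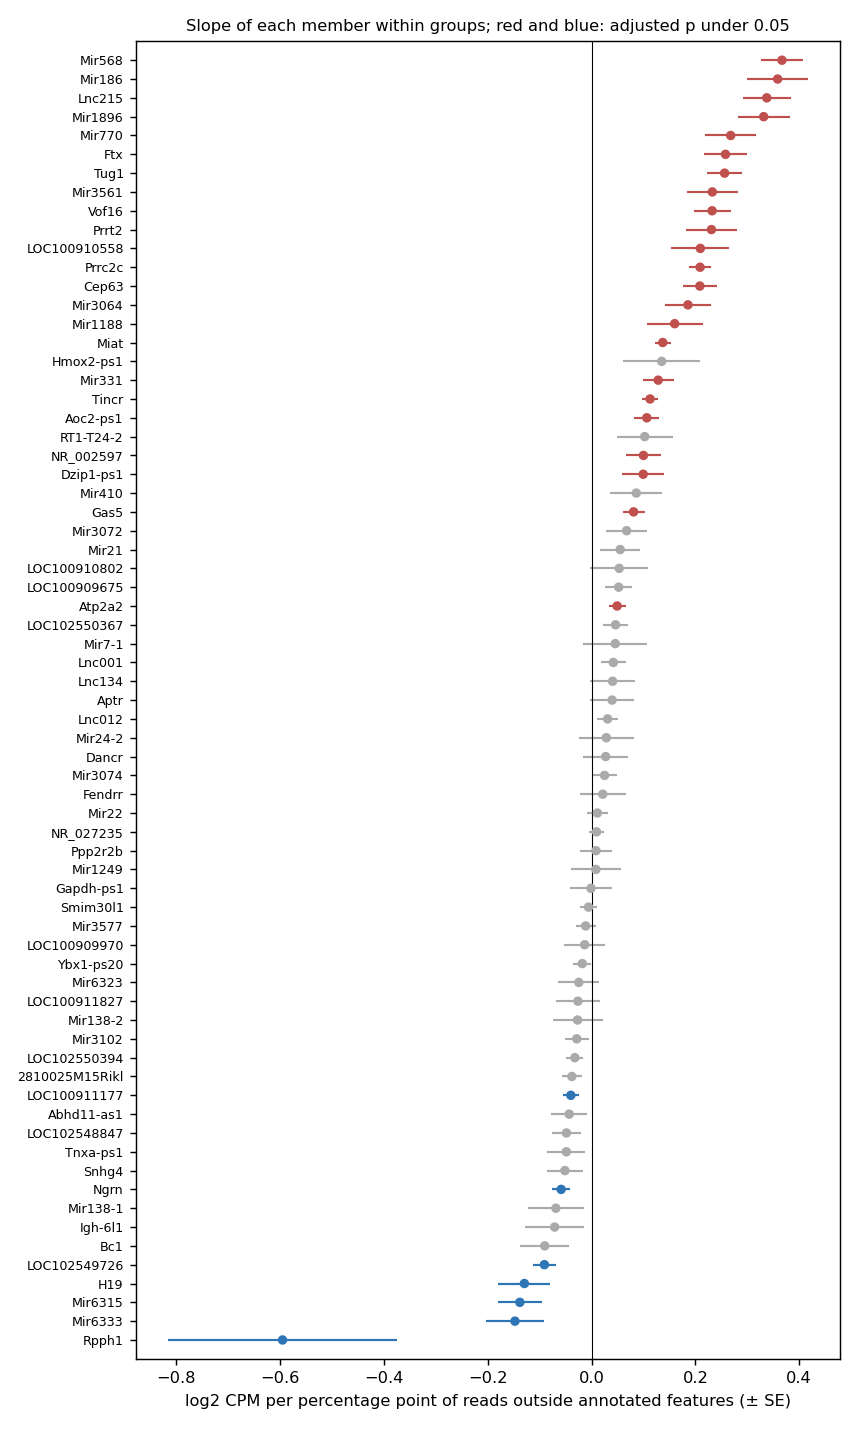
Slope of log2 CPM per percentage point of reads outside annotated features (x, ± SE) for each of the 69 members (y), from 29 libraries with 6 group means; red and blue points have an adjusted p under 0.05. Mir568 has the steepest rising slope at 0.37 and Rpph1 the steepest falling one at -0.60.

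The 5 rising members of smallest p were Prrc2c, Mir568, Miat, Tug1 and Lnc215. Prrc2c rose by 0.21 per percentage point (SE 0.02, edgeR adjusted p 1.13e-08), Mir568 by 0.37 (SE 0.04, 4.06e-08) and Miat by 0.14 (SE 0.02, 5.56e-08). Mir568 held 1.15 CPM in rat 8, where the share was 21.0%, and 8.35 CPM in rat 14, where it was 28.6%. In rat 11, where the share was 21.7%, Mir568 held 4.3 CPM. Tug1 rose by 0.26 (SE 0.03) and Lnc215 by 0.34 (SE 0.05). Without rat 8 the slopes of Mir568, Miat, Tug1 and Lnc215 were 0.33, 0.15, 0.22 and 0.29. Without rat 11 they were 0.43, 0.11, 0.33 and 0.44. That of Prrc2c stayed between 0.20 and 0.23 with single libraries left out. Other rising members were Ftx, a long RNA of the X inactivation centre, at 0.26 (SE 0.04), Vof16 at 0.23 (SE 0.04), Mir186 at 0.36 (SE 0.06) and Gas5 at 0.08 (SE 0.02).

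The 7 falling members were LOC102549726 at -0.09 (SE 0.02), Ngrn at -0.06 (SE 0.02), Mir6315 at -0.14 (SE 0.04), Rpph1 at -0.60 (SE 0.22), Mir6333 at -0.15 (SE 0.06), H19 at -0.13 (SE 0.05) and LOC100911177 at -0.04 (SE 0.02). LOC102549726 and LOC100911177 overlap small nucleolar RNA genes in the GRCr8 table, as Gas5 does, and Gas5 rose where those fell. Bc1 had a slope of -0.09 (SE 0.05) that did not pass (edgeR adjusted p 0.103). Rpph1 and Mir6333 no longer passed without rats 8 and 27, at -0.13 each. Without rat 8 the count of members was 27, and the share of all transcripts in that fit is not given here. Without rat 27 it was 34 (49.3%), where 60.6% of all transcripts were called.

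**Figure D3:**
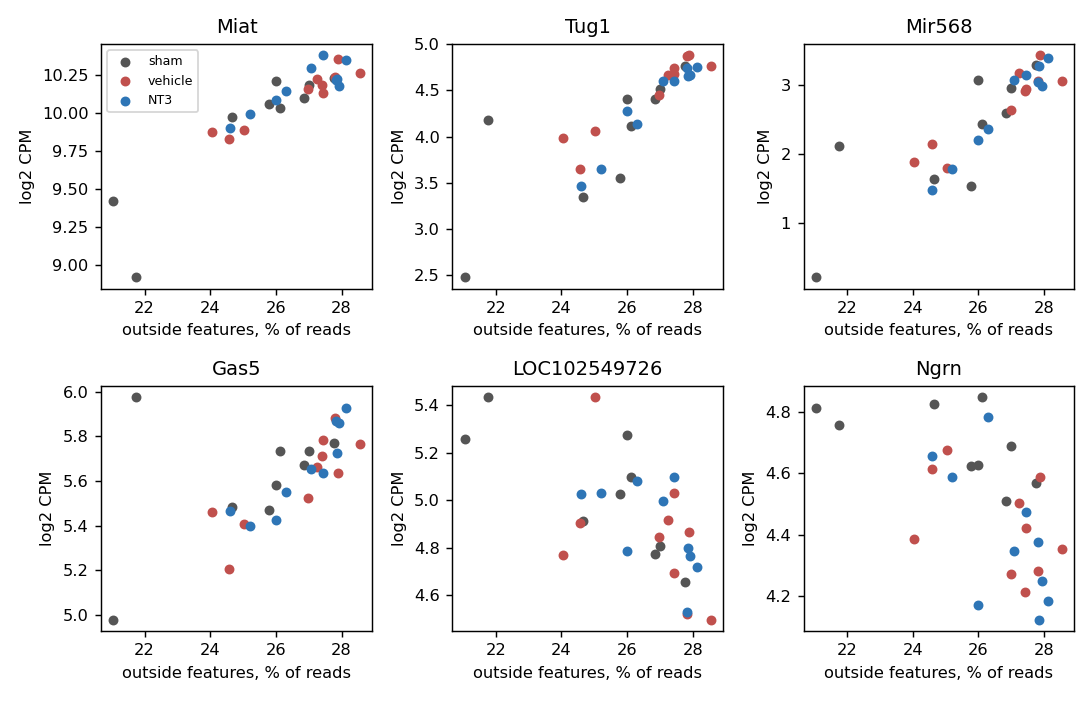
Log2 CPM (y) against the share of reads outside annotated features in percent (x) for Miat, Tug1, Mir568, Gas5, LOC102549726 and Ngrn; each point is a rat, coloured by arm. Rats 8 and 11 lie at 21.0% and 21.7%, apart from the other 27 points, and Gas5 was at 31.5 CPM in rat 8 and 62.9 in rat 11.

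The share of reads not uniquely aligned went with fewer members over all libraries, and the count and slopes depended on rat 27. Over 29 libraries 4 of 69 members passed, all rising, where 2.41% of all transcripts were called, 2.37% rising and 0.0398% falling. They were Rpph1 at 0.34 per percentage point (SE 0.04, edgeR adjusted p 2.63e-06), Hmox2-ps1 at 0.13 (SE 0.02), RT1-T24-2 at 0.09 (SE 0.02) and LOC102550367 at 0.04 (SE 0.01). Without rat 27, 20 of 69 members passed, 19 rising and 1 falling, where 43.7% of all transcripts were called, 24.7% rising and 19% falling, and 3 were called both times. These were Hmox2-ps1, RT1-T24-2 and LOC102550367, whose slopes without rat 27 were steeper, at 0.39 (SE 0.11), 0.32 (SE 0.08) and 0.16 (SE 0.04), with edgeR adjusted p of 0.00638, 0.00342 and 0.00481. Without rat 50, LOC102550367 had a slope of 0.04 and did not pass. Of the 20 members, 17 were also called on the share outside features in the same 28 libraries. Rpph1 then had a slope of -0.22 and did not pass. The shares themselves had r = -0.16 and rho = 0.45 over 29 libraries (permutation p 0.352 and 0.0139, adjusted 0.394 and 0.0378), r = -0.26 without rats 8 and 11 and r = 0.32 without rat 27.

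Rpph1 carries the symbol of the RNA part of RNase P, while the GRCr8 table types it as an RNase MRP RNA; both are catalytic RNAs made by RNA polymerase III. In vehicle rats at week 11 it was at 0.228, 39.6, 0.724, 0.30 and 0.0537 CPM, and the second is rat 27. The other 28 libraries lay between 0.0537 and 2.22 CPM, so rat 27 alone was high. It had 385 of the 649 Rpph1 reads, with an exact 95% binomial interval of 36.4 to 44.5 in unscaled CPM. Hmox2-ps1, a pseudogene by symbol, was at 50.3, 232, 62.8, 27.4 and 60.7 CPM in the same group, and 20.7 to 66.7 in the other 28 libraries. Pseudogene rows can take reads from their parent gene, so the placement of such reads is uncertain. Central nervous and macrophage marker sums were highest in the same rat, and their part in these values was not tested.

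**Figure D4:**
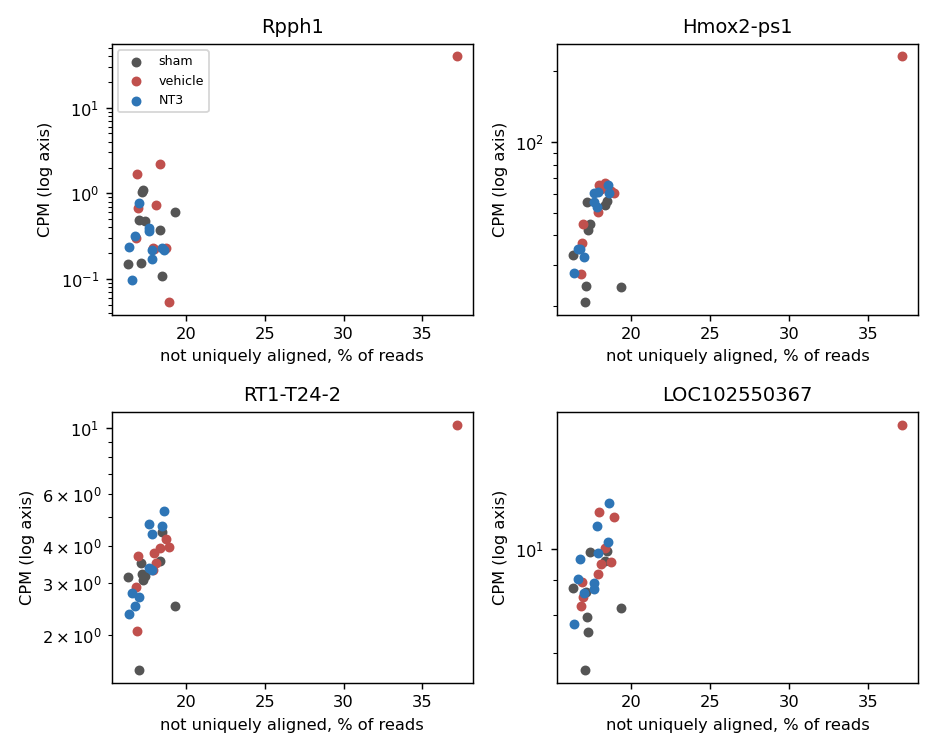
CPM on a log axis (y) against the share of reads not uniquely aligned in percent (x) for Rpph1, Hmox2-ps1, RT1-T24-2 and LOC102550367; each point is a rat, coloured by arm. Rat 27 lies alone at 37.2%, with 39.6 CPM of Rpph1 and 232 CPM of Hmox2-ps1, and the other 28 rats lie between 16.3% and 19.3%.

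For Bc1 the relation with either share was weak. Against the share outside features Pearson's r over 29 libraries was -0.32 and Spearman's rho -0.23, with permutation p of 0.0931 and 0.229 (0.160 and 0.303 after Benjamini-Hochberg adjustment over 19 relations), and r was -0.03 without rats 8 and 11. Against the share not uniquely aligned r was 0.38 and rho 0.36, with permutation p of 0.00451 and 0.0565 (0.0136 and 0.117 adjusted), and r was 0.21 without rats 11 and 27. The second relation thus passed for r and not for rho, and rested on those rats. With values centred on the 6 groups r was -0.35 and 0.34 (permutation p 0.0632 and 0.0763).

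Many microRNA rows lie inside other genes. Of the 23, 13 overlap a protein-coding gene in the GRCr8 table, 9 of these inside it on the same strand, 5 overlap a long non-coding RNA gene only and 5 overlap nothing. Some followed the gene that holds them. Mir186 lies in Zranb2, which encodes a splicing factor, and their log2 CPM went together with r = 0.93 and rho = 0.89 over 29 libraries (permutation p 1e-05 for each, the smallest that 100000 permutations can give, 9.5e-05 adjusted), with r = 0.89 without rats 8 and 69 and 0.93 within groups. Mir186 held 826 reads and Zranb2 88549. Mir186 and Mir3064 were also both called rising with the share of reads outside features, as were 30.2% of all transcripts. Neither was set against genes other than the one that holds it, so these r are not shown to be particular to that gene. Mir3064 and Ddx5, a helicase that works with Drosha, had r = 0.70 and rho = 0.61 (permutation p 9e-05 and 0.00053, adjusted 0.000428 and 0.00252), and r = 0.69 without rats 8 and 74.

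Others did not. Mir331 and Vezt had r = 0.06, Mir7-1 and Hnrnpk 0.22, Mir138-2 and Slc12a3 0.28, Mir3074 and Fancc 0.19 and Mir1249 and Kiaa0930 0.33, and none of these passed (adjusted permutation p of 0.785, 0.348, 0.207, 0.370 and 0.160). Their rho were 0.26, 0.22, 0.19, 0.20 and 0.35, with adjusted permutation p of 0.117 or more. Mir7-1 held only 316 reads, so its own counting error limits any relation. Snhg4 and Matr3, which overlap, had r = 0.00 and rho = -0.01 (permutation p 0.986 and 0.979). Mir3074 held 1828 reads while Mir24-1, on the opposite strand at the same place, held 0.

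Members of the imprinted Meg3 region form another set of neighbours. Mir770 lies in Meg3, and Mir410 and Mir3072 lie in 1 long non-coding gene of the same chromosome. Mir770 went with Mir1188 (r = 0.64, rho = 0.72), Mir3072 (r = 0.71, rho = 0.60) and Mir410 (r = 0.51, rho = 0.50), with permutation p of 0.00027, 4e-05 and 0.00502 for r (adjusted 0.00103, 0.000253 and 0.0136) and adjusted p of 0.00019, 0.00342 and 0.0199 for rho. Without rats 8 and 11 these r were 0.74, 0.48 and 0.44. The 3 pairs among Mir1188, Mir3072 and Mir410 had r of 0.31 to 0.36 and rho of 0.27 to 0.38, and did not pass after adjustment. Vof16 and Lnc215 overlap on the same strand and went together with r = 0.88 and rho = 0.78 (adjusted permutation p 9.5e-05 for each), and r = 0.83 without rats 1 and 8. Lnc215 also overlaps Mir100, which held 56 reads. All the pairs of transcripts were chosen with the values known, and libraries share depth and composition.

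**Figure D5:**
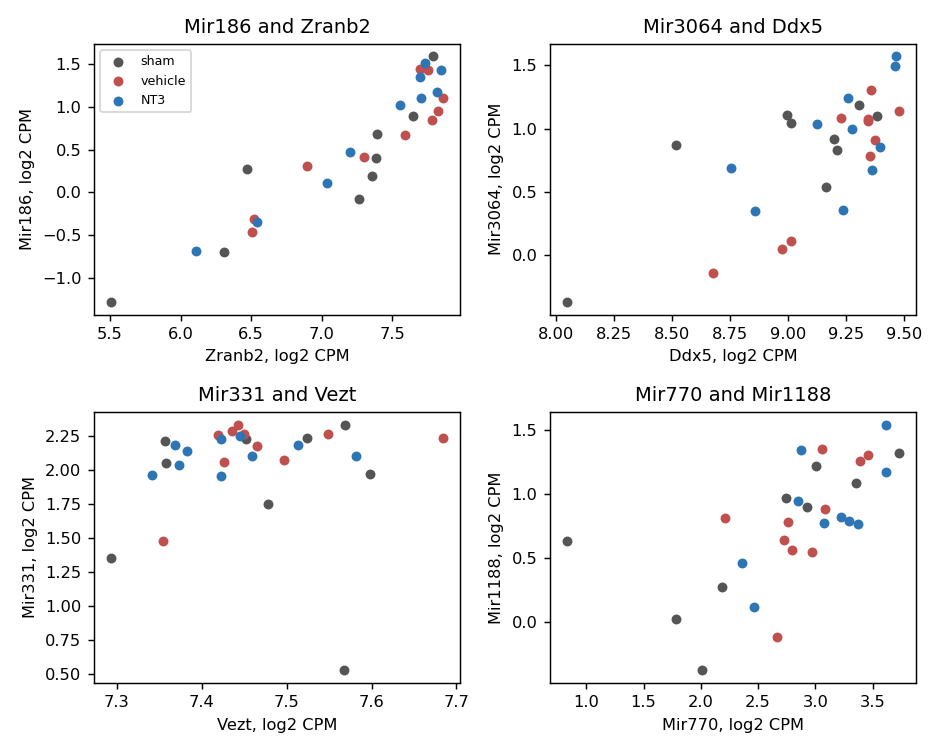
Log2 CPM of pairs of transcripts in 29 rats, coloured by arm: Mir186 against Zranb2, Mir3064 against Ddx5, Mir331 against Vezt and Mir1188 against Mir770. The first pair rises together (r = 0.93), and Mir331 and Vezt do not (r = 0.06).

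Genes that bind, make or process these RNAs were read from 6 lists. None of the 12 tested BC1-binding proteins, 25 genes of RNA polymerase III and its factors, 9 of microRNA processing, 10 of small nucleolar particles, 6 of nonsense-mediated decay or 9 transcripts of imprinted neighbours was called in any comparison of arms or weeks by edgeR. In vehicle against sham their numbers at an unadjusted p under 0.05 were 1 of 12, 6 of 25, 3 of 9, 2 of 10, 1 of 6 and 0 of 9, where 16.9% of all transcripts were under it. On the share outside features, BC1-binding proteins were called rising in 8 of 12 and falling in 2, against 30.2% and 28.7% of all transcripts. These included Fmr1, the fragile X protein, at 0.36 per percentage point (SE 0.05) and Syncrip, an RNA-binding protein, at 0.23 (SE 0.02). RNA polymerase III genes were called rising in 6 and falling in 8 of 25, with Maf1, its repressor, at -0.08 (SE 0.01) and the subunit gene Polr3f at 0.21 (SE 0.02). The microRNA processing list had 3 rising and 2 falling of 9, with Drosha at 0.03 (SE 0.01) and Tnrc6b, a partner of Argonaute, at 0.18 (SE 0.02). None of the lists had a call on the share not uniquely aligned over 29 libraries, where 2.41% of all transcripts were called. The lists were not read without rat 27, where 43.7% of all transcripts were called.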

How the data were processed

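The authors deposited 1 table of whole-number read counts for each rat, with RefSeq transcripts as rows, and the file names mark duplicate reads as taken out. The submitters' processing notes name bcl2fastq 1.8.4, TopHat2, Picard, HTSeq and the builds rn6 and Rnor_6.0, with no roles given. The strand setting of the counting is not given in the sources used here. The 5 summary lines of each file were kept out of library sizes and tests, and the shares of reads outside features and not uniquely aligned are of all lines of a file. Whether the line for reads not uniquely aligned counts reads or alignments is not given in the sources used here, so its share may be of alignments. A second, short file of each rat was not used here.

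Of 18092 transcripts, the 12556 that passed a filter at a minimum count of 10 (minimum total 15) were fitted together with edgeR 4.0.16 (R 4.3.3). The fit of the counts used trimmed-mean scaling (factors 0.974 to 1.06) and 6 group means over 29 libraries. Quasi-likelihood tests had Benjamini-Hochberg adjustment at 0.05. Log2 CPM used a prior count of 2. Slopes used the same fit with a share added. The common biological coefficient of variation was 0.185. The edgeR fit was run on simulated counts with known changes in NT3 rats, read in NT3 against vehicle with weeks averaged. The slopes, DESeq2 and voom were not tested in that way. DESeq2 1.42.0, limma 3.58.1 (voom with quality weights), other scaling, no filter, single libraries left out, rats 8 and 27 left out and the share as a covariate were alternatives. Permutation p-values are two-sided, from 100000 permutations. Binomial intervals, from a row's reads and the assigned reads of a library, cover counting error only.

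The members, gene lists and relations were chosen with earlier results of these data known. Named members are Bc1, the most read 3 of each class, those of smallest p per comparison, those called on a share and those beside the limit of 290 reads. Names, overlaps and sequences come from RefSeq tables of GRCr8, matched by identifier or symbol, and no genome of the files' build was used. Groups follow the labels, and replicate numbers are names only.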

Additional observations from a re-analysis of the deposited data

Results flagged for a closer look

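Values far from the others of their group were looked for in 30 measures in 6 groups, 180 in all, where chance alone is expected to mark about 1 in 20. There were 10. In NT3 rats at week 5, Bc1 was at 5.51 CPM in rat 25 against 2.54 to 2.94 in the others. In vehicle rats at week 11, rat 27 stood apart in Rpph1 at 39.6 CPM (others 0.0537 to 0.724), Hmox2-ps1 at 232 CPM (27.4 to 62.8), RT1-T24-2 at 10.3 CPM (2.90 to 3.97) and the share of reads not uniquely aligned at 37.2% (16.8% to 18.9%). In the same group rat 50 had 0.172% of its assigned reads on members, against 0.213% to 0.227%. Lnc001 was at 6.16 CPM in rat 54 among sham rats at week 11, against 3.84 to 4.42, and RT1-T24-2 was at 2.06 CPM in rat 1 among vehicle rats at week 5, against 3.69 to 4.21. In that vehicle group rat 1 also had 4.28 CPM of Mir6315, against 2.15 to 2.69. Among sham rats at week 11, LOC100911177 was at 49.0 CPM in rat 11, against 31.9 to 35.6.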

How the results depend on the processing

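The count of members called stayed at 0 for the comparisons of arms and weeks under DESeq2, DESeq2 size factors, no filter, each library left out, rats 8 and 27 left out and the share outside features as a covariate. The shares of all transcripts called under these alternatives are not given here. Voom called 5 members for vehicle against sham at week 5 (7.25%, against 8.59% of all transcripts) and 14 for week 11 against week 5 in sham rats (20.3% against 17.6%). Prrc2c, Tug1 and Vof16 gained a call in the first, and NR_027235, LOC100911827 and Atp2a2 in the second. In the other 8 comparisons voom called 0 members, where 0% to 0.773% of all transcripts were called. The 30 members called on the share outside features were 30 to 32 under the other alternatives and 27 to 34 with single libraries left out. Voom called 31 (44.9%, against 63.3% of all transcripts). Without rats 8 and 27 there were 32 (46.4% against 52.8%), and without rat 27 alone 34 (49.3% against 60.6%). The 4 called on the share not uniquely aligned became 18 with voom (26.1%, against 35.9% of all transcripts) and 18 without rats 8 and 27 (26.1% against 34.2%), and 3 to 20 with single libraries left out, 3 without rat 50 and 20 without rat 27. Per all reads listed, the r of Bc1 was -0.40 with the share outside features, now past the threshold, and 0.19 with the other, no longer past it. With single libraries left out the ranges were -0.38 to -0.21 and 0.32 to 0.43.

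Only Rpph1 changed sign, among named members and the alternatives run. Its slope on the share not uniquely aligned was -0.0009 with voom and -0.26 without rats 8 and 27 (-0.22 to 0.37 with single libraries left out). For vehicle against sham at week 11 it was -0.76 without both rats (-0.72 to 4.24). Between the weeks in vehicle rats it was -0.67 with voom and -1.62 without both (-1.62 to 3.39). Each also changed sign without rat 27 alone. No paired analysis was possible because replicate numbers here are only names in accession order. Depth limits the thin rows: Mir6333, with 311 reads over 29 libraries, allows no small difference to be detected.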
